A study of Mus musculus with 6 samples.

Results

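The 41 genes described here encode the glycolytic pathway and the cellular response to low oxygen. They were chosen by gene symbol as 41 of the 25638 genes of the deposited expression table, and all 41 were found in it. By role they comprised 2 glucose transporters, 16 glycolytic enzymes, 3 regulators of glycolytic flux and glucose uptake, 5 genes of pyruvate and lactate handling, the transcription factor subunit Hif1a with 2 of the prolyl hydroxylases that act on it, and 12 targets of the hypoxia response. They were measured in OT-I cells, mouse CD8+ T cells with a transgenic receptor for an ovalbumin peptide, labelled genotype WT. These T cells were stimulated with OVA257-264, the ovalbumin peptide, in all 3 groups. For 48 hours they were kept with TANs, with TAMos or with vehicle, then purified again and sequenced, with 2 libraries per group. TANs were sorted as CD11b+Ly6G+Ly6Clow cells and TAMos as CD11b+Ly6G-Ly6Chigh cells, both from the spleen and not the tumour of mice bearing LLC, a transplanted lung carcinoma. The sources used here do not give what TAN and TAMo abbreviate, the age of the mice, the ratio of myeloid to T cells or the oxygen level of the cultures. Nothing in the labels ties the 2 libraries of a group to different cultures or mice, so p-values measure only how far these samples spread, and that spread may be technical.

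Glycolysis splits glucose into pyruvate, which is reduced to lactate or enters mitochondria, and activated CD8+ T cells run it at a high rate also when oxygen is plentiful. The factor HIF pairs an oxygen-labile alpha subunit, such as the one encoded by Hif1a, with a stable partner. While oxygen is present, prolyl hydroxylases (Egln1, Egln3) mark the alpha subunit for destruction. When they stall, or when T cell receptor and mTOR signalling raise its synthesis, HIF binds hypoxia response elements with the core sequence ACGTG or GCGTG and raises transcription of glucose transporters, glycolytic enzymes and stress genes. Several of these targets, Egln3 among them, feed back on the pathway. Txnip follows another sensor: its transcription is raised by glucose metabolites, and its protein promotes removal of glucose transporters from the cell surface.

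The promoters below are shown as examples of 2 patterns. Hilpda, Ddit4 and P4ha1 were called higher than vehicle in both co-cultures, and Txnip, Ldhb and Egln3 are 3 of the 4 genes with calls in opposite directions. Sequences are from RefSeq on GRCm38.p6, read 5′ to 3′ on the gene's own strand, from 250 bases before to 50 after the annotated start. Capitals mark ACGTG and GCGTG on either strand, so that a match on the opposite strand reads CACGT or CACGC. Of the 2 listed starts of Hilpda, the one whose window held the matches of both is shown. The windows are Hilpda chr6:29272376-29272675 (+), Ddit4 chr10:59951721-59952020 (-), P4ha1 chr10:59323046-59323345 (+), Txnip chr3:96557707-96558006 (+), Ldhb chr6:142507908-142508207 (-) and Egln3 chr12:54203825-54204124 (-).
Hilpda: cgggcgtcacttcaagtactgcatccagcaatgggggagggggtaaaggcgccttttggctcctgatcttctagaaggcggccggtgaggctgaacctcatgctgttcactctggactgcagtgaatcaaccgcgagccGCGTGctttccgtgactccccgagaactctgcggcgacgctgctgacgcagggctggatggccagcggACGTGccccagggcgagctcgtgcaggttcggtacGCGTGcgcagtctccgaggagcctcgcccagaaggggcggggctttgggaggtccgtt
Ddit4: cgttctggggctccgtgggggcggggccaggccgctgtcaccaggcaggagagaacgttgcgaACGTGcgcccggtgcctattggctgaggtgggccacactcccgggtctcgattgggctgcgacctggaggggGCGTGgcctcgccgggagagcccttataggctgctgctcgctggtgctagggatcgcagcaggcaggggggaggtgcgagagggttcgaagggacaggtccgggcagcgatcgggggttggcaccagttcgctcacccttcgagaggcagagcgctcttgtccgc
P4ha1: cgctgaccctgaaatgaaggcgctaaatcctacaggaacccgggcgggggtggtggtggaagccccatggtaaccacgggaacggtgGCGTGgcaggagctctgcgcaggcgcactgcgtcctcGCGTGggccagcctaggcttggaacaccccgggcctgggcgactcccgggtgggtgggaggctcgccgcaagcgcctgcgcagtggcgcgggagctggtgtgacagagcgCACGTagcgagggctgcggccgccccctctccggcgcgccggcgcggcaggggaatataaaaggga
Txnip: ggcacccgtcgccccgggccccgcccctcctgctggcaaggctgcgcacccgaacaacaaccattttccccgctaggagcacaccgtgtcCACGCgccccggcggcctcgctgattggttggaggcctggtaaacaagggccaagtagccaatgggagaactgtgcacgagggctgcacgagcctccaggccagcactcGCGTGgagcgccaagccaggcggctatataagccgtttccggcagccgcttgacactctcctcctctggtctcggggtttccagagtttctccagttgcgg
Ldhb: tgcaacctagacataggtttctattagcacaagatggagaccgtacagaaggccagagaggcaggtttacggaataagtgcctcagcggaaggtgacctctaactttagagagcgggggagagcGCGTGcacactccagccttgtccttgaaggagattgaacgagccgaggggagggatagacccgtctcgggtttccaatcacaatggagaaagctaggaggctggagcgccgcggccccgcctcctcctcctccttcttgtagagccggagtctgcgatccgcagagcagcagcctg
Egln3: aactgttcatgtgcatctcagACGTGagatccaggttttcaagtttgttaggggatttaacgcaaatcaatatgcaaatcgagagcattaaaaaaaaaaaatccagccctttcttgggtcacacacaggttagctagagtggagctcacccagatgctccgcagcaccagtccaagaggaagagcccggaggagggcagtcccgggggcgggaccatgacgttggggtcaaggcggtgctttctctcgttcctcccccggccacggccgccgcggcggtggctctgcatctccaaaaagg

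RefSeq promoters were matched for 38 of the 41 genes, with 55 annotated starts, and Slc2a3, Bnip3l and Ndrg1 had no entry. ACGTG stood in 28 of these 55 promoters (50.9%) and in 19.6% of all 32851 mouse promoters of the same length of 300 bases. GCGTG stood in 33 (60%), against 32.4% of all promoters. One or both were present in 44 (80%), against 43.8%. The E-box CACGTG, which contains ACGTG on both strands, stood in 6 (10.9%), against 7.15%. A pair of exact E-boxes with any 5 bases between them was found in 0 of the 55 and in 0 of all promoters. That count therefore cannot set the 41 genes apart. Imperfect pairs, with letters differing from CACGTG, were not searched for, so the share of promoters that hold them is not known. The Txnip sequence shown above does hold such a pair: CACGAG, 5 bases (ggctg) and CACGAG again. Pairs of this kind in other promoters were not counted, and whether the Txnip pair is bound was not tested. Promoters of the 41 genes were also richer in G and C, with a median of 62% against 52.7%, and the part of base composition in these shares was not tested. Among the promoters shown, Hilpda held 1 ACGTG and 2 GCGTG, P4ha1 held 1 and 2, and Ddit4 held 1 of each. Txnip held 2 GCGTG, Ldhb 1 GCGTG, and Egln3 1 ACGTG. These are matches of letters and not shown to be bound sites.

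Expression was deposited as FPKM, fragments counted per gene, scaled by gene length and by all counted fragments of the library, a scale on which levels of different genes can be compared. Steps between low values gave 45 and 44.7 M counted reads for the TAN libraries, 43.7 and 41.6 for the TAMo libraries and 44.8 and 45.3 for the vehicle libraries. In TAMo replicate 1, 98.3% of the low values were even numbers of reads, against 60.1% to 63.5% in the other libraries. Nearly all of them would thus also be whole at a depth below 35 M, where the search began. The 43.7 M given for that library is therefore not reliable and is likely too high. The 11 of 14 T cell markers in the table summed to 2437 and 2454 FPKM with TANs, 2631 and 2605 with TAMos and 2471 and 2499 with vehicle. That sum hides moves in both directions with TAMos against vehicle. Cd2 was 3.79-fold and Cd8a 1.57-fold lower, while Cd5 was 3.25-fold and Cd247 1.55-fold higher. All 16 neutrophil markers were under 1 FPKM in every library, and 9, S100a8 and S100a9 among them, were at 0 throughout. T cell transcripts were thus abundant, and those of neutrophils were at or near 0. Of 21 monocyte and macrophage markers, 17 were under 1 FPKM in every library and 5, including Lyz1 and C1qa, were at 0. Summed levels of those 21 were 42.7 and 43 FPKM with TANs, 19.3 and 23.2 with TAMos and 55 and 54.3 with vehicle, most of it Ly6c2 and Apoe. Cd14 of that list went the other way, with 0.085 and 0.0284 FPKM with TANs, 2.84 and 3.17 with TAMos and 0.0852 and 0.0563 with vehicle, and so did Cd68, with 2.65 and 1.82, 3.63 and 7.05, and 2.95 and 2.35 FPKM in the same groups. Markers of these myeloid cells thus did not move as one with TAMos. The 8 dendritic cell markers summed to 2.36 and 2.89 FPKM with TANs, 8.84 and 8.63 with TAMos and 3.36 and 2.84 with vehicle. Zbtb46 and Ccr9, the only ones of these to reach 1 FPKM, were both higher with TAMos than with vehicle. Their means were 5.49 and 1.63 FPKM with TAMos, against 1.72 and 0.0465 with vehicle. The other 6 were under 1 FPKM in every library and were not tested. Among those, the mean level of Xcr1 was higher with TAMos than with vehicle. Those of Flt3, Itgax and Clec9a were lower, with overlapping libraries for Flt3 and Clec9a. Mitochondrial transcripts took 8.07% and 8.21% of all FPKM with TANs, 1.2% and 1.32% with TAMos and 8.15% and 8.34% with vehicle. The part of the monocyte, dendritic and mitochondrial differences in the TAMo results was not tested. In bulk RNA, fewer cells of a type and less RNA per cell cannot be told apart.

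Co-culture with TANs addresses how these myeloid cells act on T cells during activation. In it, 11 of the 41 genes were higher than with vehicle and 4 were lower, by at most 1.44-fold. Hypoxia targets made up 5 of the 11, led by Ddit4, an inhibitor of mTOR signalling, and Hilpda, a lipid droplet protein that restrains fat breakdown. Hif1a itself and Egln3 were also higher. Txnip, Ldhb, the enolase isozyme Eno3 and the glucose transporter Slc2a3 were lower. Differences were tested with limma over the 10727 genes that reached 1 FPKM in 2 or more libraries, on the scale log2(FPKM + 1), and called at a Benjamini-Hochberg adjusted p under 0.05. Of all genes tested, 9.37% were called higher and 11% lower with TANs than with vehicle, against 26.8% and 9.76% of the 41. Their median log2 difference was 0.055, and that of all genes tested was -0.005.

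**Figure D1:**
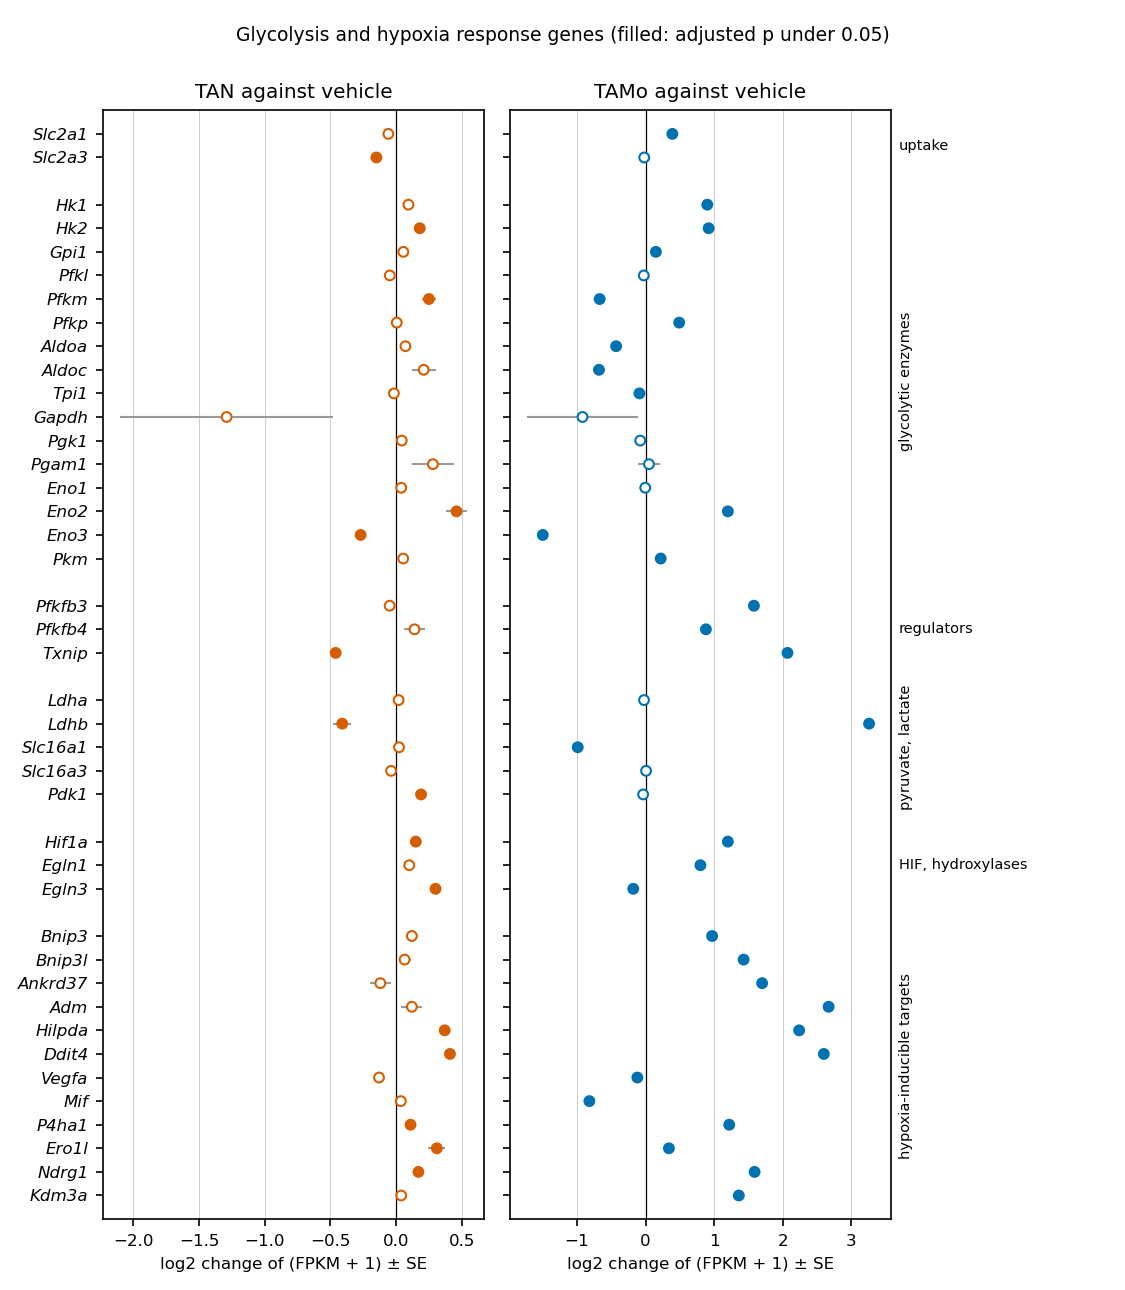
Log2 difference (log2(FPKM + 1) scale) of each of the 41 genes in TAN against vehicle (left panel) and TAMo against vehicle (right panel), grouped by role, with bars for the standard error of the limma model (2 libraries per group). Filled points passed an adjusted p of 0.05. With TAMos 13 genes lie at or above 1 and Eno3 lies below -1, whereas with TANs all lie between -1 and 1 except Gapdh at -1.29, which was not called. Small TAMo differences such as those of Tpi1, Egln3 and Vegfa change sign when libraries are rescaled to one sum.

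Among the 12 hypoxia targets, 5 rose with TANs (41.7%, beside 9.37% of all genes): Ddit4, Hilpda, Ero1l, Ndrg1 and P4ha1. The median log2 difference over the 12 was 0.11. Ddit4 stood at 132 and 128 FPKM with TANs, against 97.9 and 97.5 FPKM with vehicle, a 1.33-fold difference (log2 0.41 ± 0.028 standard error, limma adjusted p = 0.000376). Hilpda stood at 71.2 and 65.2 FPKM with TANs, against 52.9 and 51.9 FPKM with vehicle (1.3-fold, log2 0.37 ± 0.043, adjusted p = 0.00216). For both genes each TAN library exceeded each vehicle library. With 2 libraries per group, such separation, here and below, adds no support to a call. Kdm3a, for instance, was separate too but was not called (log2 0.039, adjusted p = 0.44). How many of all genes were separate was not counted. Ero1l, an oxidase that forms disulfide bonds in the endoplasmic reticulum, had 198 and 202 FPKM with TANs, against 159 and 165 with vehicle (log2 0.31 ± 0.066, adjusted p = 0.0202). Ndrg1, a stress-inducible gene, differed by 1.12-fold (adjusted p = 0.0111) and P4ha1, a subunit of collagen prolyl hydroxylase, by 1.08-fold (adjusted p = 0.049). The other 7 targets did not pass. Among those, Bnip3, a receptor for the removal of mitochondria, had a log2 difference of 0.12 (adjusted p = 0.0936), and Vegfa, the vascular growth factor, one of -0.13 (adjusted p = 0.0574).

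In the oxygen-sensing core, Hif1a had 129 and 128 FPKM with TANs, against 114 and 116 FPKM with vehicle (1.11-fold, log2 0.15 ± 0.026, limma adjusted p = 0.00871). Egln3, a hydroxylase that HIF itself induces, had 110.3 and 112 FPKM with TANs, against 90.3 and 89.2 with vehicle (1.24-fold, log2 0.30 ± 0.028, adjusted p = 0.00105). Neither gene's groups overlapped, and nor did those of Egln1. Egln1, the main hydroxylase of the alpha subunit in most cells, had a log2 difference of 0.10 and did not pass (adjusted p = 0.0765).

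Of the 16 glycolytic enzymes 3 rose with TANs (18.8%, beside 9.37% of all genes) and 1 fell (6.25%, beside 11%). The other 12 did not pass, and the genes called in this model were minor isozymes or a hexokinase. Eno2, an enolase isozyme best known from neurons, had 8.16 and 9.2 FPKM with TANs, against 5.67 and 6.39 FPKM with vehicle (log2 0.46 ± 0.08, limma adjusted p = 0.00944). Pfkm, the muscle isozyme of phosphofructokinase, had 21.4 and 20.8 FPKM with TANs, against 18.2 and 17.1 with vehicle (log2 0.25 ± 0.053, adjusted p = 0.0194). Eno3, the muscle enolase, had 111 and 109 FPKM with TANs, against 136 and 132 FPKM with vehicle (1.21-fold lower, log2 -0.27 ± 0.031, adjusted p = 0.00212). In each of these 3 genes the TAN and vehicle libraries were separate, as they were for Aldoa and Pkm, which were not called. Hk2, the inducible hexokinase, which traps glucose in the cell, had 124 and 125 FPKM with TANs, against 109 and 110.4 FPKM with vehicle (1.13-fold, adjusted p = 0.00451). The most abundant enzyme transcripts were closer: Eno1 differed by a log2 of 0.039, Pkm by 0.054 and Aldoa by 0.071, and none of these passed. This depends on the spread shared with the TAMo libraries. In a limma fit of the 2 groups alone, Pgam1 (log2 0.28), Hk1 (0.094) and Aldoa were also called higher. Their adjusted p were 0.000763, 0.0379 and 0.0465 in that order.

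Txnip and Ldhb carried the strongest falls with TANs. Txnip had 20.9 and 21.1 FPKM with TANs, against 28.7 and 30 FPKM with vehicle (1.4-fold lower, log2 -0.46 ± 0.034, limma adjusted p = 0.000506). Ldhb, the lactate dehydrogenase subunit that favours oxidation of lactate to pyruvate, had 5.89 and 5.03 FPKM with TANs, against 7.37 and 7.8 with vehicle (1.39-fold lower, log2 -0.41 ± 0.069, adjusted p = 0.00843). Both TAN libraries lay below both vehicle libraries in each case. Slc2a3, a high-affinity glucose transporter, had 261 FPKM in each TAN library, against 288 and 289.9 FPKM with vehicle (log2 -0.15 ± 0.024, adjusted p = 0.00757). The other transporter, Slc2a1, had a log2 difference of -0.059 and did not pass (adjusted p = 0.168). Pdk1, a kinase that keeps pyruvate out of the mitochondrial dehydrogenase, rose 1.15-fold (log2 0.19 ± 0.034, adjusted p = 0.00992).

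Leaving out a TAN or vehicle library cut the calls over all genes too, to between 325 and 390 higher, against 1005 with all libraries. Its remaining partner is then assumed to vary as the other groups do. All 15 called genes kept the sign of their log2 difference, with Ldhb ranging between -0.51 and -0.32 and Eno2 between 0.38 and 0.54. Slc2a3, Pdk1, Pfkm, Ero1l and P4ha1 missed the threshold whichever of those 4 libraries was left out, with adjusted p up to 0.0618, 0.0712, 0.107, 0.119 and 0.205 in that order, and their log2 differences stayed between -0.15 and -0.14, between 0.18 and 0.21, between 0.20 and 0.29, between 0.28 and 0.33 and between 0.092 and 0.12. Ndrg1 missed it without TAN replicate 2 or either vehicle replicate (adjusted p up to 0.0808), Hif1a without either TAN replicate or vehicle replicate 1 (up to 0.0679), Eno2 without TAN replicate 2 or vehicle replicate 1 (up to 0.0656), and Ldhb without vehicle replicate 2 (0.0592). P4ha1 was also not called without a filter, without the variance trend or with the 2 groups alone (0.0548 to 0.105), Ero1l without a filter or trend (0.0881 and 0.0555), Pfkm without a filter (0.0517) and Ndrg1 without the trend (0.0508). Hk2, Eno3, Txnip, Egln3, Hilpda and Ddit4 passed under all 17 alternatives tried.

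Against vehicle, co-culture with TAMos gave a far wider response. Of the 41 genes 23 were higher and 9 lower, beside 45.7% of all genes tested that were higher and 40.7% that were lower, against 56.1% and 22% of the 41. All 3 regulators of glycolysis and 10 of 12 hypoxia targets rose, Ddit4 6.11-fold, while the targets Mif and Vegfa fell, the small fall of Vegfa under some scalings only. The enzymes of the main glycolytic chain were divided, 6 higher and 5 lower of 16. The median log2 difference was 0.34 over the 41 genes and 0.057 over all genes tested. By role it was 1.4 for the 12 hypoxia targets and -0.016 for the 16 enzymes. A log2 difference of at least 1 was reached by 13 genes, 8 of them hypoxia targets. With libraries rescaled to one sum of FPKM, the median of all genes shifted to 0.24, and 31 of the 41 genes were higher and 6 lower, beside 53.7% of all genes higher and 33.7% lower. Median-of-ratios factors, which bring the median of all genes to -0.0003, moved the counts the other way. They gave 23 higher and 13 lower, beside 43.1% and 43% of all genes. Directions of small differences below thus depend on scaling.

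**Figure D2:**
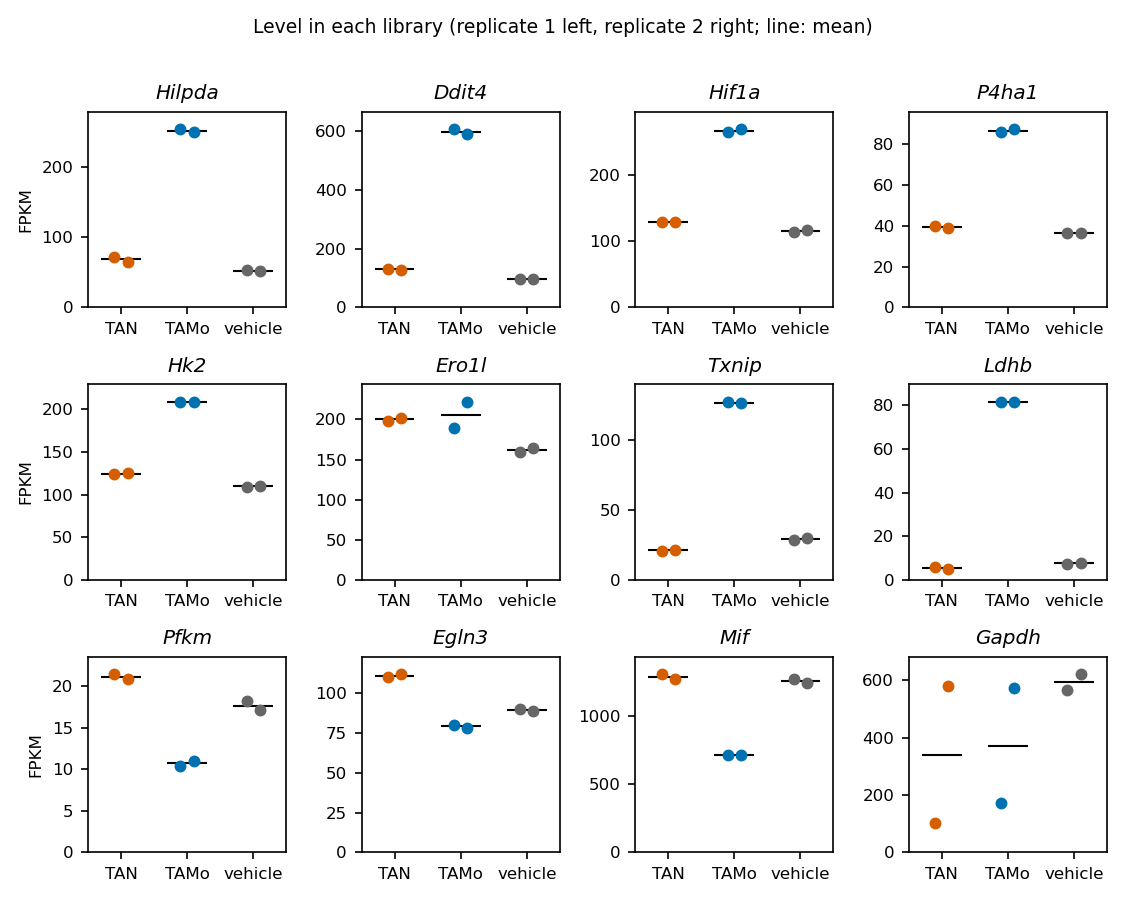
FPKM of 12 of the genes in each library (points; linear axis from 0; 2 libraries per group), with the mean of each group as a line. Hilpda, Ddit4, Hif1a, P4ha1 and Hk2 show TAMo libraries far above and TAN libraries slightly above vehicle, Txnip and Ldhb show TAMo libraries above and TAN libraries below vehicle, and Gapdh shows low values in replicate 1 of TAN and TAMo.

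Hypoxia targets rose with TAMos in 10 of 12 cases (83.3%, beside 45.7% of all genes) and fell in 2 (16.7%, beside 40.7%). Ddit4 had 605 and 589 FPKM with TAMos, against 97.9 and 97.5 FPKM with vehicle (6.11-fold, log2 2.60 ± 0.028, limma adjusted p = 6.15e-10). Hilpda had 253 and 249 FPKM with TAMos, against 52.9 and 51.9 FPKM with vehicle (4.79-fold, log2 2.24 ± 0.043, adjusted p = 5.24e-09). Adm, the vasodilator peptide adrenomedullin, had 6.93 and 6.58 FPKM with TAMos, against 0.209 and 0.223 with vehicle, a ratio of 31.3 that the log2 scale with 1 added gives as 2.67 ± 0.081 (adjusted p = 4.56e-08). In all 3 genes the TAMo libraries were several times above every other library, and Adm was the only target below 1 FPKM without TAMos. Ankrd37, an ankyrin repeat protein induced by HIF, had 23.2 and 23.3 FPKM with TAMos, against 6.14 and 6.78 FPKM with vehicle (3.6-fold, log2 1.70 ± 0.078, adjusted p = 4.39e-07). Ndrg1 rose 3.03-fold, Bnip3l 2.74-fold, the histone demethylase Kdm3a 2.62-fold, P4ha1 2.37-fold, Bnip3 1.97-fold and Ero1l 1.27-fold. Bnip3 and Bnip3l both encode receptors for mitophagy, and their libraries did not overlap between TAMo and vehicle. Mif, a cytokine and HIF target, went the other way, with 712 and 713 FPKM with TAMos, against 1275 and 1244 with vehicle (1.77-fold lower, log2 -0.82 ± 0.027, adjusted p = 7.84e-08). Vegfa was slightly lower (log2 -0.12 ± 0.038, adjusted p = 0.0184), but 0.079 with libraries rescaled to one sum and not called without vehicle replicate 1 (-0.072, adjusted p = 0.113).

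Hif1a had 264 and 268 FPKM with TAMos, against 114 and 116 FPKM with vehicle, and so rose 2.31-fold (log2 1.20 ± 0.026, limma adjusted p = 9.07e-09). Egln1 rose 1.76-fold (log2 0.80 ± 0.034, adjusted p = 3e-07). Egln3 had 80.4 and 78.3 FPKM with TAMos, against 90.3 and 89.2 with vehicle (log2 -0.18 ± 0.028, adjusted p = 0.000652), a fall that turned to 0.026 with libraries rescaled to one sum (adjusted p = 0.423). The transcript of the factor and of 1 hydroxylase was thus higher beside most targets, while the other hydroxylase was not.

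All 3 regulators of flux and uptake rose with TAMos. Txnip had 127 and 126 FPKM with TAMos, against 28.7 and 30 FPKM with vehicle (4.31-fold, log2 2.07 ± 0.034, limma adjusted p = 2.88e-09). Pfkfb3, which makes the sugar phosphate that activates phosphofructokinase, had 83 and 81.7 FPKM with TAMos, against 26.6 and 27.1 with vehicle (3.07-fold, log2 1.58 ± 0.033, adjusted p = 7.59e-09). Its paralog Pfkfb4 rose 2.07-fold, with 7.42 and 7.17 FPKM with TAMos, against 3.25 and 3.8 FPKM with vehicle. TAMo libraries lay above vehicle libraries without overlap in each. Slc2a1, the transporter for basal glucose entry, rose 1.32-fold (log2 0.39 ± 0.027, adjusted p = 4.2e-06), and Slc2a3 did not pass (log2 -0.02, adjusted p = 0.453). Slc2a3 was 0.18 with libraries rescaled to one sum, but called lower with median-of-ratios factors (-0.084, adjusted p = 0.0128).

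Among the enzymes with TAMos, both hexokinases rose, Hk2 by 1.9-fold (209 FPKM in each TAMo library, against 109 and 110.4 with vehicle) and Hk1 by 1.88-fold. Eno2 had 15.7 and 14.7 FPKM with TAMos, against 5.67 and 6.39 FPKM with vehicle (2.51-fold, log2 1.20 ± 0.08, limma adjusted p = 3.56e-06). Pfkp, the platelet-type phosphofructokinase, rose 1.4-fold, Pkm, pyruvate kinase, 1.16-fold, and Gpi1, the hexose phosphate isomerase, by a log2 of 0.15 ± 0.029 (adjusted p = 0.0016). The muscle-type isozymes moved in the opposite direction. Eno3 had 45.6 and 47.3 FPKM with TAMos, against 136 and 132 FPKM with vehicle (2.88-fold lower, log2 -1.50 ± 0.031, adjusted p = 7.8e-09). Pfkm had 10.4 and 11 FPKM with TAMos, against 18.2 and 17.1 FPKM with vehicle (1.65-fold lower, log2 -0.67 ± 0.053, adjusted p = 9.34e-06). Both TAMo libraries were below both vehicle libraries for each isozyme. Aldoa, the main aldolase of most tissues, had 1729 and 1666 FPKM with TAMos, against 2315 and 2259 with vehicle (1.35-fold lower, log2 -0.43 ± 0.032, adjusted p = 6.41e-06), but the fall shrank to -0.068 and was not called after quantile normalisation (adjusted p = 0.0579). Aldoc, its minor paralog, had 3.07 and 3.85 FPKM with TAMos, against 6.22 and 5.99 FPKM with vehicle (log2 -0.68 ± 0.092, adjusted p = 0.000235). On the deposited FPKM scale, aldolase transcripts of both genes were therefore lower with TAMos in each library.

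Other abundant enzymes sat near the scaling limit. Tpi1, triose phosphate isomerase, was called lower with TAMos (log2 -0.09 ± 0.026, limma adjusted p = 0.012), yet stood at 0.11 with libraries rescaled to one sum, at 0.0078 with mitochondrial genes left out and at 0.42 after quantile normalisation, and was not called without vehicle replicate 1. Pgk1, Eno1, Pfkl and the lactate dehydrogenase subunit Ldha had log2 differences of -0.078, -0.0052, -0.026 and -0.023 with TAMos and did not pass, and all of them were positive with libraries rescaled to one sum, at 0.13, 0.20, 0.18 and 0.18. No direction is given for these 5 genes. The shift of the median of all genes from 0.057 to 0.24 with libraries rescaled to one sum is of the same size.

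**Figure D3:**
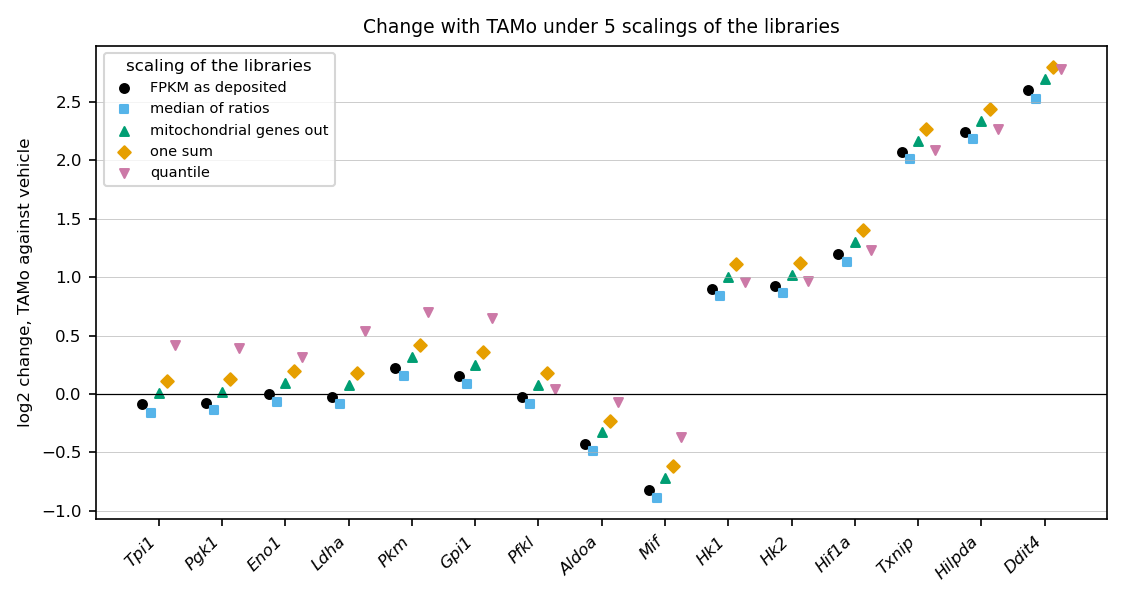
Log2 difference of TAMo against vehicle for 15 of the genes under the deposited scaling and 4 others (point shapes). Ddit4, Hilpda, Txnip, Hif1a, Hk1, Hk2 and Mif keep their side of 0 under these 5 scalings, whereas Tpi1, Pgk1, Eno1, Ldha and Pfkl lie on both sides of 0.

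Of the 5 genes that decide the fate of pyruvate, Ldhb changed most with TAMos. It had 81.5 and 81.3 FPKM with TAMos, against 7.37 and 7.8 FPKM with vehicle (10.7-fold, log2 3.26 ± 0.069, limma adjusted p = 8.14e-09). Of the stretches of 75 bases in Ldhb transcripts, 12.6% also occurred in 1 other annotated gene, whose share of the reads is not known. Slc16a1, a transporter that moves lactate in either direction, had 20 and 18.6 FPKM with TAMos, against 39.1 and 39.3 with vehicle (2.03-fold lower, log2 -0.99 ± 0.042, adjusted p = 2.93e-07). The TAMo libraries stood apart from the vehicle libraries in both genes. Slc16a3, the lactate exporter of highly glycolytic cells, did not pass (log2 0.0068), though it was called higher with libraries rescaled to one sum (0.21, adjusted p = 0.000483) and with mitochondrial genes left out (0.10, adjusted p = 0.0157). Pdk1 did not pass either (log2 -0.036, adjusted p = 0.342). It was 0.16 with libraries rescaled to one sum, but called lower with median-of-ratios factors (-0.099, adjusted p = 0.0262).

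Compared directly, TAN co-cultures were higher than TAMo co-cultures for 10 of the 41 genes and lower for 23. Over all genes tested 40.6% were higher and 46% lower, against 24.4% and 56.1% of the 41, and the median log2 difference was -0.37 against -0.065. With libraries rescaled to one sum, 7 of the 41 were higher and 31 lower, beside 33.2% and 53.7% of all genes. With median-of-ratios factors 12 were higher and 21 lower, beside 43.1% and 43%. Lower with TANs were 9 of the 12 hypoxia targets, all 3 regulators and both glucose transporters. Higher with TANs were 6 of the 16 enzymes, of which Tpi1 and Pgk1 turn to lower with libraries rescaled to one sum, together with Egln3, Slc16a1, Pdk1 and Mif. Adm stood at 0.289 and 0.353 FPKM with TANs, against 6.93 and 6.58 with TAMos (21-fold lower, log2 -2.55 ± 0.081, limma adjusted p = 5.92e-08), Ddit4 was 4.59-fold lower with TANs, Ankrd37 3.94-fold and Hilpda 3.69-fold. For Ankrd37 the TAN libraries had 6.34 and 5.45 FPKM, near the level with vehicle. On the other side, Eno3 was 2.37-fold higher with TANs (log2 1.23 ± 0.031, adjusted p = 2.07e-08), Aldoc 2.09-fold, Slc16a1 2.06-fold, Mif 1.81-fold and Aldoa 1.41-fold. Slc16a1 had 39.7 and 39.9 FPKM with TANs, Mif 1308 and 1275, Aldoc 7.06 and 7.38, and Aldoa 2426 and 2378. Each of these 4 had TAN levels that lay close to vehicle and apart from TAMo. The calls of Slc2a3, Gpi1, Tpi1, Pgk1 and Pdk1 between TAN and TAMo were lost under 1 or more alternatives, with adjusted p up to 0.0759, 0.477, 0.421, 0.473 and 0.37 in that order. Left-out libraries ended those of Gpi1 (either TAN replicate), Tpi1 (any TAN or vehicle library) and Pgk1 (TAN replicate 2). Ero1l stood at 198 and 202 FPKM with TANs and 189.9 and 222 with TAMos, and the libraries overlapped (log2 -0.035 ± 0.066, adjusted p = 0.629).

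Both comparisons with vehicle share the vehicle libraries, so calls they have in common are a description. How many of all genes tested had calls in common was not counted. Hk2, Eno2, Hif1a, Hilpda, Ddit4, P4ha1, Ero1l and Ndrg1 were called higher in each, and Eno3 lower in each. Adm, Ankrd37, Bnip3l, Kdm3a, Pfkfb3 and Slc2a1 were among those called higher with TAMos and not called with TANs, and Pdk1 was called higher and Slc2a3 lower with TANs and not called with TAMos. A gene called in one comparison and not in the other is not shown by that to differ between them.

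Opposite calls against the shared vehicle libraries were made for 4 of the 41 genes. How many of all genes tested had such calls was not counted, so 4 is not shown to be an unusual number. Single calls were common: 9.37% of all genes were higher and 11% lower with TANs than with vehicle, and 45.7% and 40.7% with TAMos. Txnip (chr3:96557957-96561883, GRCm38) and Ldhb (chr6:142490249-142507957) were lower with TANs and higher with TAMos than with vehicle. Pfkm (chr15:98092589-98132451) and Egln3 (chr12:54178981-54203860) were higher with TANs and lower with TAMos. Since opposite calls chose these genes, their difference between TAN and TAMo follows from the choice and is a description. TAN libraries were 6.03-fold lower than TAMo libraries for Txnip (log2 -2.54 ± 0.034) and 14.9-fold lower for Ldhb (log2 -3.68 ± 0.069). They were 1.98-fold higher for Pfkm (log2 0.92 ± 0.053) and 1.4-fold higher for Egln3 (log2 0.48 ± 0.028). In all 4 genes the vehicle libraries lay between those of the other groups. For Egln3 the fall with TAMos was lost with libraries rescaled to one sum, and the difference between TAN and TAMo was then 0.28.

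**Figure D4:**
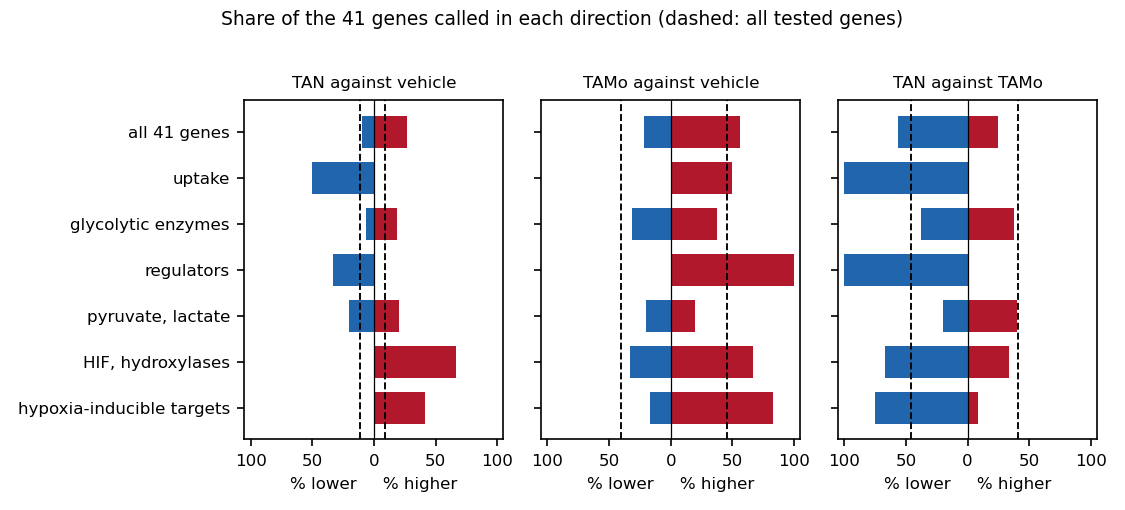
Percent of the genes of each role called higher (right of 0) and lower (left of 0) in 3 panels (left, TAN against vehicle; middle, TAMo against vehicle; right, TAN against TAMo), with dashed lines for the same percentages over all 10727 genes tested. Roles hold between 2 and 16 genes, so a bar can rest on 1 gene. With TAMos 10 of 12 hypoxia targets were higher, whereas 6 of 16 glycolytic enzymes were higher and 5 lower, of which Tpi1 changes side when libraries are rescaled to one sum.

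Summed over the 15 glycolytic enzymes other than Gapdh, transcript levels were close, at 15182 and 15023 FPKM with TANs, 14923 and 15079 with TAMos and 14686 and 14528 with vehicle. As a percent of all FPKM, the sum was 2.41 and 2.39 with TANs, 2.73 and 2.75 with TAMos and 2.33 and 2.31 with vehicle, since all FPKM of a library summed to less with TAMos. All 12 hypoxia targets summed to 2137 and 2109 FPKM with TANs, 2701 and 2746 with TAMos and 1992 and 1969 with vehicle. Without Mif, the most abundant target, which was lower with TAMos, the other 11 summed to 829 and 834 FPKM with TANs, 1989 and 2033 with TAMos and 716 and 726 with vehicle. The target sum was thus higher with TAMos either way, and by how much depended on Mif. The enzyme sum differed little in FPKM but was higher with TAMos as a percent.

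Isozyme makeup, a ratio within a library that rescaling of a library cannot move, shifted as follows. Pfkp made up 60% and 60.6% of the phosphofructokinase transcripts with TANs, 67.9% and 68.8% with TAMos and 59.4% and 60.1% with vehicle. Eno3 made up 3.01% and 3.03% of the enolase transcripts with TANs, 1.33% and 1.34% with TAMos and 3.75% and 3.72% with vehicle. Ldhb made up 0.132% and 0.115% of lactate dehydrogenase with TANs, 1.83% and 1.89% with TAMos and 0.168% and 0.18% with vehicle. Ldha thus remained nearly all of the lactate dehydrogenase transcript in every library. Slc16a1 made up 15.7% and 16% of the summed Slc16a1 and Slc16a3 with TANs, 8.22% and 7.99% with TAMos and 15% and 15.6% with vehicle. Slc2a1 made up 41.6% and 41.4% of the 2 glucose transporters with TANs, 47.3% and 46.9% with TAMos and 39.9% and 40.2% with vehicle. Hexokinase makeup hardly moved, with Hk2 at 27.7% and 28.7% with TANs, 27% and 27.6% with TAMos and 26.8% and 27.2% with vehicle.

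Gapdh and Pgam1, both enzymes of the lower pathway, varied strongly between the replicates of 1 or both co-cultures. Gapdh had 101 and 579 FPKM with TANs, 171 and 571 with TAMos and 566 and 620.4 with vehicle, so replicate 1 of both co-cultures was low. Its log2 difference from vehicle was -1.29 ± 0.81 with TANs (limma adjusted p = 0.31) and -0.92 ± 0.81 with TAMos (adjusted p = 0.316), but -0.034 without TAN replicate 1 and -0.053 without TAMo replicate 1. Stretches of 75 bases from Gapdh, 22.6% of them, recur in 118 other annotated genes, and the sources used here do not say how reads were divided among these. Pgam1, phosphoglycerate mutase, had 505 and 508 FPKM with TANs, 351 and 529.8 with TAMos and 424 and 410.4 with vehicle. With TAMos its log2 difference from vehicle was 0.35 without TAMo replicate 1 and -0.25 without TAMo replicate 2. With TANs it was 0.28, not called in the model over all libraries (adjusted p = 0.262) but called once either TAMo library was left out (adjusted p up to 0.000698). Shared stretches also made up 52.8% of Pgk1, 34.9% of Pgam1, 28.2% of Mif and 23% of Eno1, whose levels are uncertain because the assignment of such reads is not known.

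Neighbouring genes of the same pathways were examined as 5 further lists. Of 41 other genes known to respond to hypoxia, 35 were tested, and with TAMos 22 were higher and 12 lower (62.9% and 34.3%, beside 45.7% and 40.7% of all genes), with a median log2 difference of 0.78, against 0.057 for all genes. Plod2, a collagen lysyl hydroxylase, had 72.6 and 69.5 FPKM with TAMos, against 8.99 and 8.52 with vehicle (log2 2.89 ± 0.053, limma adjusted p = 4.35e-09). Cyclin Ccng2 (log2 2.19) and the chemokine receptor Cxcr4 (log2 1.94) were also higher, whereas Angptl4, a lipase inhibitor (log2 -1.86), and Nos2, the inducible nitric oxide synthase (log2 -1.44), were lower. With TANs 5 of the 35 were higher and 7 lower (14.3% and 20%, beside 9.37% and 11% of all genes), with a median of 0.013. Among those Ier3, an early response gene, had 47.1 and 45.2 FPKM with TANs, against 35.7 and 34.1 with vehicle (log2 0.39 ± 0.049, adjusted p = 0.00301), and Nrn1, neuritin, had 11.2 and 10.8 FPKM, against 18 and 18.9 (log2 -0.70 ± 0.058, adjusted p = 0.000724). Genes of this list thus moved in both directions in each co-culture.

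Of 18 further parts of the oxygen-sensing machinery, 15 were tested. With TAMos 8 were higher and 6 lower (53.3% and 40%), shares near the 45.7% and 40.7% of all genes. Hif1an, the asparagine hydroxylase that blocks coactivator binding, had 18.8 and 18.2 FPKM with TAMos, against 5.36 and 6.2 with vehicle (log2 1.53 ± 0.074, limma adjusted p = 5.81e-07), and Ep300, one of those coactivators, had 101 and 103 FPKM, against 41.3 and 39.4 (log2 1.32 ± 0.034, adjusted p = 2.18e-08). Cited2, which competes with HIF for that coactivator, was lower (log2 -0.93). With TANs 1 of the 15 passed, Ep300, which was higher (log2 0.14 ± 0.034, adjusted p = 0.0279). That made 6.67% higher and 0% lower, beside 9.37% and 11% of all genes.

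Sensors and effectors of glucose metabolites, among them the arrestin-domain relatives of Txnip, made up a list of 10 genes, of which 8 were tested. Arrdc3, a relative, moved as Txnip did, with 1.6 and 1.53 FPKM with TANs, 21.9 and 22 with TAMos and 2.09 and 2.22 with vehicle. Its log2 difference from vehicle was -0.30 ± 0.064 with TANs (limma adjusted p = 0.0203) and 2.87 ± 0.064 with TAMos (adjusted p = 1.07e-08). Arrdc4, likewise an arrestin-domain gene, was at 0.15 and 0.133 FPKM with TANs, 2.23 and 2.3 with TAMos and 0.381 and 0.483 with vehicle (log2 -0.33 with TANs and 1.19 with TAMos). Both relatives thus had vehicle libraries between TAN and TAMo libraries. Arrdc2 and Arrdc1 were lower with TAMos (log2 -1.43 and -0.74), so the family did not move as one. Over the whole list, 1 was higher and 2 lower with TANs (12.5% and 25%, beside 9.37% and 11% of all genes). With TAMos 4 were higher and 3 lower (50% and 37.5%, near the 45.7% and 40.7% of all genes). The gene higher with TANs was Prkaa1, a catalytic subunit of the energy sensor AMPK and no relative of Txnip.

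Other sugar transporters, isozymes and branch enzymes numbered 33, of which 18 were tested. With TAMos 9 were higher and 7 lower (50% and 38.9%), and with TANs 2 were higher and 3 lower (11.1% and 16.7%), shares near those of all genes. Slc2a6, a hexose transporter, was lower with TANs and higher with TAMos, with 4.16 and 3.62 FPKM with TANs, 32.8 and 31.5 with TAMos and 6.16 and 5.44 with vehicle (log2 -0.48 ± 0.079 and 2.29 ± 0.079, limma adjusted p = 0.00843 and 9.35e-08). Slc2a4, the insulin-responsive transporter, had 9.88 and 8.56 FPKM with TAMos and was listed at 0 in both vehicle libraries. Pck2, which makes phosphoenolpyruvate in mitochondria, had 59.3 and 56.9 FPKM with TANs, 2.27 and 1.77 with TAMos and 70.2 and 69.4 with vehicle (log2 -0.26 ± 0.075 with TANs and -4.56 ± 0.075 with TAMos). Pck2 thus stood far lower with TAMos than in the other libraries.

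Of 17 genes for entry of pyruvate into mitochondria, 15 were tested, and with TAMos 4 were higher and 9 lower (26.7% and 60%, beside 45.7% and 40.7% of all genes). Pdp2, a phosphatase that activates pyruvate dehydrogenase, had 1.66 and 1.88 FPKM with TAMos, against 7.21 and 6.85 with vehicle (log2 -1.54 ± 0.073, limma adjusted p = 5.13e-07), and Pdk2, one of the opposing kinases, had 1.81 and 1.2 FPKM, against 0.139 and 0.0984 (log2 1.15 ± 0.13, adjusted p = 7.27e-05). The median of the list was -0.25, against 0.057 for all genes. With TANs 2 were higher (13.3%, beside 9.37% of all genes) and 1 was lower (6.67%, beside 11%). That was Mpc1, a subunit of the mitochondrial pyruvate carrier, at 38.6 and 42.3 FPKM with TANs, against 50.5 and 52.8 with vehicle (log2 -0.35 ± 0.059, adjusted p = 0.00923). That fall separated the TAN from the vehicle libraries, as did the difference of Mpc2, which was not called.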

How the data were processed

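RNA of purified OT-I CD8+ T cells was extracted with Trizol and sequenced on a NovaSeq instrument from TruSeq libraries, per the labels' protocols. The authors deposited FPKM per gene and library. CASAVA, HISAT2 2.0.5, featureCounts 1.5.0-p3 and build mm10 are named in the submitters' processing notes, with no role or order. The sources used here do not give the annotation, gene lengths or strand setting, so reads of overlapping genes on opposite strands cannot be told apart. FPKM is relative to all counted reads, so a large change in abundant transcripts moves all other values.

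From these values, log2(FPKM + 1) was fitted in limma 3.58.1 (R 4.3.3; lmFit, contrasts.fit and eBayes with a variance trend) over all 6 libraries, for the 10727 genes that reached 1 FPKM in 2 or more libraries, with no further scaling. Residual degrees of freedom were 3 and prior ones 4.07. Two-sided tests were used, with Benjamini-Hochberg adjustment over all genes of a comparison and a threshold of 0.05. Per-library values are FPKM; folds are ratios of mean FPKM with nothing added, and values after ± are standard errors of log2 differences.

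The steps between low values gave the depth, in 7708 genes with 1 transcript, where between 98.8% and 99% of values up to 40 reads were whole within 0.1. For a gene of 2 kb, a single read equals 0.011 to 0.012 FPKM at these depths. Only depths between 35 and 60 M were searched. For TAMo replicate 1, with nearly all low values even, a depth below that range would fit too. Its true depth is likely lower and the value of a read higher. Coordinates and stretches of 75 bases shared with other genes are from GENCODE mouse release 21 on GRCm38, and promoters from RefSeq.

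The 41 genes, the role lists, the 5 further lists and the marker lists were chosen with earlier results of these data known. Values in every library were given for called genes among the 6 largest differences in each direction of a comparison and for those with opposite calls, and for further genes as space allowed. From each further list at most 4 genes per direction and comparison could be named. Alternatives were 2 other pseudocounts, no filter, a mean of at least 5 FPKM, 4 other scalings, no variance trend, the 2 groups alone, a replicate block and each library left out.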

Additional observations from a re-analysis of the deposited data

Results flagged for a closer look

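Calls in opposite directions against the shared vehicle libraries were made for 4 of the 41 genes. The share of all genes tested with such calls was not counted, so 4 of 41 is not shown to be unusual. For Txnip the log2 differences from vehicle were -0.46 with TANs and 2.07 with TAMos, for Ldhb -0.41 and 3.26, for Pfkm 0.25 and -0.67, and for Egln3 0.30 and -0.18. The log2 difference of TAN from TAMo was accordingly -2.54 for Txnip, -3.68 for Ldhb, 0.92 for Pfkm and 0.48 for Egln3. Because the genes were picked for their opposite calls, this difference follows from the choice and was not tested independently of it. The fall of Egln3 with TAMos turned to 0.026 with libraries rescaled to one sum.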

How the results depend on the processing

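Of 15 calls in TAN against vehicle 6 held under all 17 alternatives. In TAMo against vehicle 28 of 32, and in TAN against TAMo 28 of 33, held under every alternative that tested the gene. For Adm and Pfkfb4 that was 16, since the filter on a mean of at least 5 FPKM left them out. With 1 library left out, the number of the 41 genes higher with TANs than with vehicle ranged from 4 (without vehicle replicate 1 or TAN replicate 2) to 16 (without either TAMo replicate), against 11 with all libraries, and the number lower from 3 to 4. All genes called higher moved alike, from 325 (without TAN replicate 2) to 1188 (without TAMo replicate 1), against 1005. Rescaling the libraries to one sum turned the log2 difference of TAMo from vehicle to 0.18 for Slc2a3, 0.18 for Pfkl, 0.11 for Tpi1, 0.13 for Pgk1, 0.20 for Eno1, 0.18 for Ldha, 0.16 for Pdk1, 0.026 for Egln3 and 0.079 for Vegfa, and that of TAN from TAMo to -0.13 for Tpi1, -0.079 for Pgk1, -0.16 for Eno1 and -0.16 for Ldha. With mitochondrial genes left out, TAMo against vehicle turned to 0.078 for Slc2a3, 0.0078 for Tpi1 and 0.093 for Eno1, and TAN against TAMo to -0.023 for Tpi1. Quantile normalisation turned TAMo against vehicle to 0.42 for Tpi1, 0.39 for Pgk1, 0.32 for Eno1 and 0.54 for Ldha, and TAN against TAMo to -0.36, -0.37, -0.32 and -0.59 for the same 4 genes. With median-of-ratios factors, falls of Slc2a3 (-0.084), Pgk1 (-0.14), Ldha (-0.088) and Pdk1 (-0.099) in TAMo against vehicle were called. Pgam1 ranged from -0.25 (without TAMo replicate 2) to 0.35 (without TAMo replicate 1) in TAMo against vehicle. Rescaling to one sum and leaving out mitochondrial genes shift all genes of a library by the same factor; for quantile normalisation and for Pgam1 the cause was not tested.

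Libraries share only a replicate number: the deviations of same-numbered libraries from their group means correlated at 0.0567 between TAN and vehicle, 0.0244 between TAMo and vehicle and 0.00782 between TAN and TAMo. With a replicate block, 12 genes were higher and 4 lower with TANs, 23 and 10 with TAMos, and 10 and 23 in TAN against TAMo, beside 963 and 1177, 4897 and 4385, and 4368 and 4932 over all genes. The block ended the call of P4ha1 with TANs (adjusted p = 0.0608). Depth limits genes near 1 FPKM, such as Adm with TANs or vehicle.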
